A study of Mus musculus with 16 samples.

Results

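The Kupffer cell markers studied here were 10 genes: Marco, Clec4f, Vsig4, Cd5l, Timd4, Cd68, Csf1r, C1qa, C1qb and C1qc. They were found by their gene name in the scanner files, and all 10 were among the 20404 genes tested, of 37074 gene names on the array. Liver RNA of male C57BL/6 mice fed a normal chow (NC) was measured on 16 one-colour Agilent arrays, 1 per mouse. The mice were 6 weeks old when a 4-week NC feeding began, and the labels give an age of 10 weeks. All were conventional mice, that is, mice with a microbiota of their own that had received no antibiotics. Conv + PBS mice (n = 6) were gavaged with the vehicle, reduced PBS, according to the methods and the treatment label, although another label calls them not transplanted. Conv + LM mice (n = 5) received caecal content of lean mice, and Conv + OM(HFD) mice (n = 5) that of mice made obese by a high-fat diet (the HFD-microbiota). The caecal content was pooled from several donors and the recipients were housed in groups, so that mice of 1 group shared an inoculum, which limits how far they stand for other transfers.

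Kupffer cells are the resident macrophages of the liver. They sit in the sinusoids, where they take up bacteria, bacterial products and worn-out red cells from the portal blood, and they therefore stand between the gut microbiota and the hepatocytes. They depend on the receptor encoded by Csf1r, which binds the growth factors CSF1 and IL-34. Several markers encode receptors for particles and dying cells. Marco is a class A scavenger receptor, Clec4f a lectin that is restricted to Kupffer cells in mice, Vsig4 a complement receptor and Timd4 a receptor for phosphatidylserine on apoptotic cells. C1qa, C1qb and C1qc encode the chains of C1q, the first component of the classical complement pathway, Cd5l a secreted scavenger protein (AIM) and Cd68 a glycoprotein of macrophage lysosomes. Marco, Cd5l and Cd68 were taken as markers that macrophages can induce, and the other 7 as constitutive ones. That split was made from general knowledge of the genes and not from these data.

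Because several markers are neighbours or relatives, the sequences that measured them are shown first. The genes of C1q lie next to each other on chromosome 4, where RefSeq places C1qb, C1qc and C1qa at 136880126 to 136886200, 136889801 to 136892936 and 136895916 to 136898844 (GRCm38.p6). On mm9, the build of the array files, the C1qa probe lies at chr4:136452409-136452468 and the C1qb probe at chr4:136436578-136436637, both on the minus strand. The probes of these paralogous chains are printed 5′ to 3′, with the longest run of bases that both share in capitals.

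C1qa probe: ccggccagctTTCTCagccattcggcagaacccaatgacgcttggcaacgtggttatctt

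C1qb probe: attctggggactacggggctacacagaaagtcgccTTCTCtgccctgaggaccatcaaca

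This run was 5 bases of 60. Among the probes of the 9 markers compared in this way (Csf1r was left out), the longest run shared by any pair was 9 bases, between C1qb and Cd68. The values of C1qa, C1qb and C1qc were therefore read through different sequences.

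The markers moved together across mice, as described after their values. The 250 bases upstream of the transcription start were searched in RefSeq promoters for GAGGAA. This is the core to which the macrophage factor PU.1 and other ETS factors can bind. Whether such factors had a part in the co-movement was not tested. C1qa and Csf1r were not searched. Of the 8 markers searched, C1qb, C1qc, Cd5l, Cd68, Marco and Vsig4 held it on at least 1 strand, that is, 6 of 8, against 23.3% of 32851 promoters. The windows of C1qb and C1qc, a neighbouring pair, and of Marco are printed on the strand of the gene. They lie at chr4:136886201-136886450, chr4:136892915-136893164 and chr1:120505025-120505274 of GRCm38.p6, all on the minus strand. The start used by the promoter table for C1qc lies inside the span given above for the gene. Capitals mark GAGGAA or its reverse complement.

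C1qb promoter: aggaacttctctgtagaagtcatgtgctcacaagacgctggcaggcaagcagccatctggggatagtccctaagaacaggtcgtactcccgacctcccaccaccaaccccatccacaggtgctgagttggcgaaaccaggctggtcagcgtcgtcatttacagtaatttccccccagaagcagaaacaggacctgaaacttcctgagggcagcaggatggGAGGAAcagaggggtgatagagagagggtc

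C1qc promoter: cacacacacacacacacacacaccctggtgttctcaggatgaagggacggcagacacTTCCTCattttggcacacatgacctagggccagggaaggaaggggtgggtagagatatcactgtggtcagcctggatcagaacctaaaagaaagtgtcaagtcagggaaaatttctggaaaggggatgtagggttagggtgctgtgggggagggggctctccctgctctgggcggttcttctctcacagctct

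Marco promoter: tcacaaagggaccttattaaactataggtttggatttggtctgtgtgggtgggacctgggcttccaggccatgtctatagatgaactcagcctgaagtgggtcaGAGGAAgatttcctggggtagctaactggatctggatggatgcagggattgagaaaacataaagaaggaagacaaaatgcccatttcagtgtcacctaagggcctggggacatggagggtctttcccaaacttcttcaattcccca

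The match began 30 bases before the start in C1qb, 193 in C1qc and 146 in Marco. The AP-1 site, spelled TGANTCA, was found in 1 window (6.75% of all promoters), that of Cd68. Both strands were searched, and neither motif contains the other. These matches describe the letters of the windows only.

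The values below are log2 of the background-subtracted brightness minus the 75th percentile of the array, so that 0 is a probe brighter than 75% of the array. Levels of different genes are not comparable on this scale, since each probe has its own brightness. Brightness is not a count, and the number of arrays limits the precision. Between 49.7 and 58.3% of probes were well above background per array, and no spot was saturated. Each marker's probe was well above background on 16 of 16 arrays. Hepatocyte genes, Alb among them, were above background on all arrays too. In these bulk samples, fewer Kupffer cells and less marker RNA per cell cannot be told apart. Conv + PBS mouse 1 stood apart from all other mice, and Conv + OM(HFD) mouse 25 came next, so results that rest on them are given with and without them.

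Marco was the most variable of the markers. In Conv + PBS mice it was lowest at 1.59, had a median of 2.56 and reached 5.88 in mouse 1, while the other 5 mice lay between 1.59 and 2.92. In Conv + LM mice 13 to 17 it was 0.73, 2.36, 1.97, 1.04 and 2.78. In Conv + OM(HFD) mice 25, 26, 28, 29 and 30 it was 3.97, 2.20, 2.33, 2.89 and 1.83. Mouse 1 was thus 12.5-fold above the median of the other Conv + PBS mice, mouse 25 was the next highest of all 16, and the 3 groups overlapped.

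Cd5l, which is secreted into the blood by tissue macrophages, showed the same order of mice at its top. In Conv + PBS mice its lowest value was 3.96, its median 4.49 and its highest 6.56, that of mouse 1, and the highest of the other mice was 4.73. Its values were 3.88, 4.34, 4.10, 4.03 and 4.38 in Conv + LM mice and 5.51, 4.05, 4.70, 4.68 and 3.99 in Conv + OM(HFD) mice. Apart from mouse 1 and mouse 25, Cd5l stayed within 3.88 to 4.73. Clec4f was between 3.10 and 4.92 in Conv + PBS mice (median 3.50). In Conv + LM mice it was 3.09, 3.42, 3.03, 3.33 and 3.42, and in Conv + OM(HFD) mice 4.35, 2.99, 3.62, 3.71 and 3.23. Here too the mice above 4 were mouse 1 and mouse 25, and no other.

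Timd4, read by the dimmest of the probes used for the markers, spanned −2.41 to 0.26 in Conv + PBS mice (median −2.05). It was −2.61, −2.29, −2.74, −2.42 and −2.18 in Conv + LM mice and −1.57, −2.33, −1.80, −1.98 and −3.42 in Conv + OM(HFD) mice. Mouse 1 was 5.01-fold above the median of the other Conv + PBS mice, and the lowest of all 16 values was that of Conv + OM(HFD) mouse 30. For Csf1r, the receptor on which the cells depend, mouse 1 had 5.74 and the other Conv + PBS mice 3.44 to 3.72, while Conv + LM mice lay between 3.24 and 3.79 and Conv + OM(HFD) mice between 3.42 and 4.63.

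The C1q genes had the same pattern. C1qa was 2.77 in mouse 1 and 0.14 to 1.21 in the other Conv + PBS mice, 0.34 to 1.46 in Conv + LM and 0.30 to 1.80 in Conv + OM(HFD) mice. C1qb and C1qc were 4.25-fold and 3.34-fold higher in mouse 1 than the median of its group mates. Vsig4 and Cd68 were 3.30-fold and 3.02-fold higher there. Over the 10 markers, mouse 1 exceeded that median by 1.42 (Clec4f) to 3.64 (Marco) on the log2 scale, and mouse 25 exceeded the median of the other Conv + OM(HFD) mice by 0.58 (Timd4) to 1.71 (Marco).

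**Figure D1:**
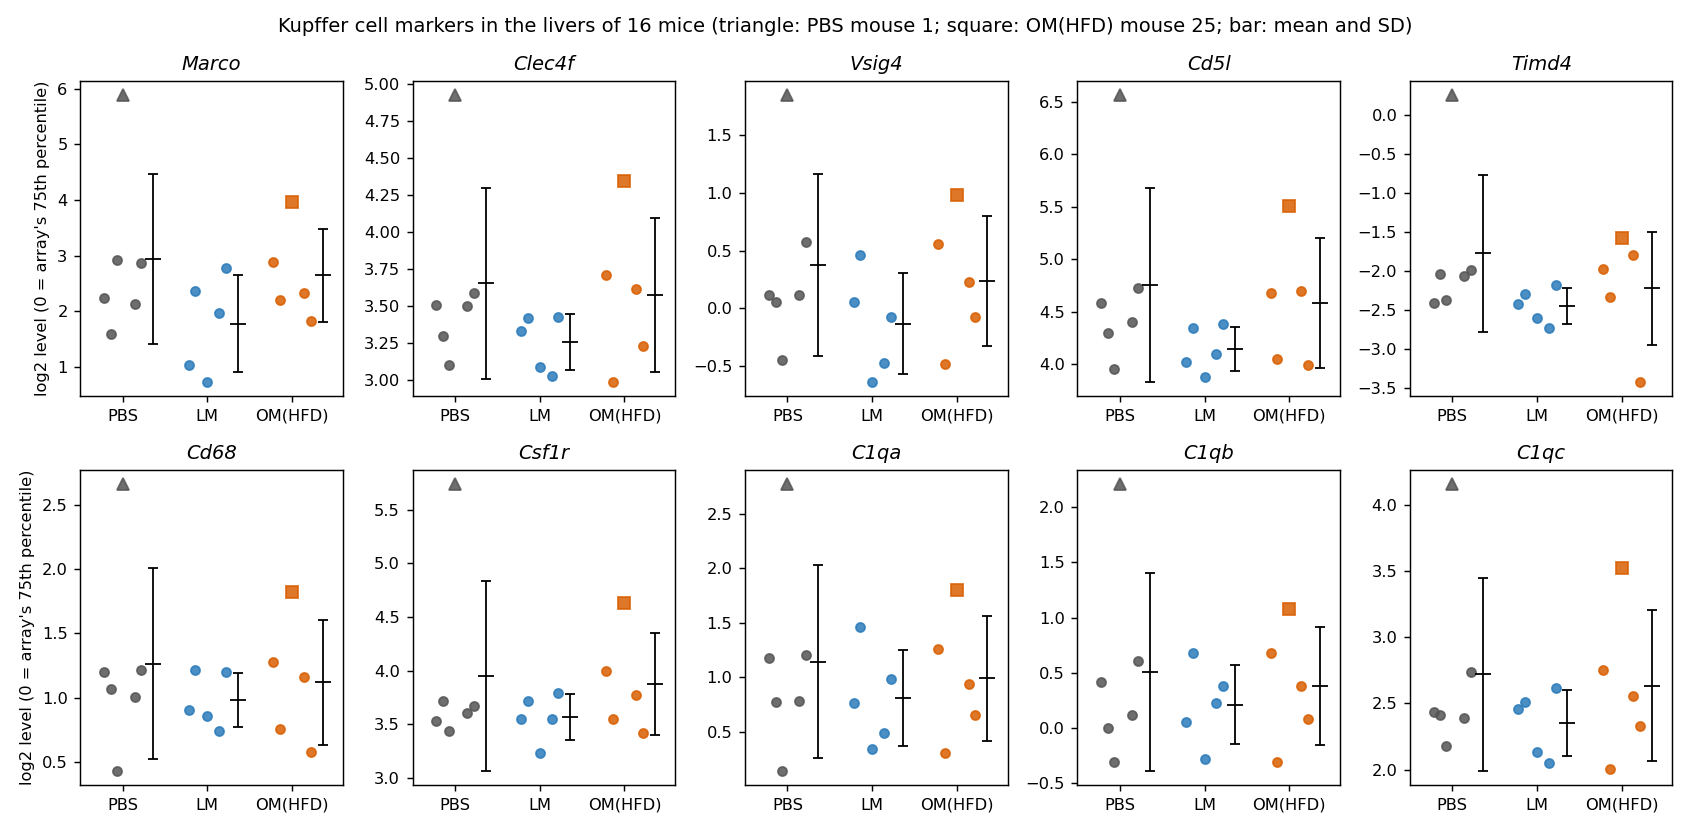
Log2 level (vertical axis, 0 is the 75th percentile of the array) of each marker in each mouse, by group (horizontal axis), with a bar for the mean and SD (n = 6, 5 and 5). Mouse 1 (triangle) was the highest of the 16 mice for all 10 markers and mouse 25 (square) the second highest, and the other mice of the 3 groups overlapped.

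Mouse 1 was the highest of the 16 mice for 8.30% of all genes tested and for 10 of 10 markers. Without mouse 1, mouse 25 was the highest for 9.97% of all genes and again for 10 of 10 markers. A level more than 1 above the median of its group mates was found in mouse 1 for 717 genes (3.51%), which included all 10 markers, and in mouse 25 for 815 genes (3.99%), which included 4 markers. The array of mouse 1 had no saturated spot and the lowest share of probes well above background, 49.7%. This was close to the 49.8% of Conv + PBS mouse 5 and the 49.9% of Conv + LM mouse 15.

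The question put to the groups was whether the transfer of caecal microbiota, lean or obese, went with other marker levels than the vehicle. By mean, all 10 markers were highest in Conv + PBS, intermediate in Conv + OM(HFD) and lowest in Conv + LM mice. Without mouse 1 and mouse 25, Conv + LM mice had the lowest mean for 7 markers. By median, on which single mice weigh less, Conv + LM mice were lowest for 9 markers, and Conv + OM(HFD) mice were highest for 8 and Conv + PBS mice for 2. No neighbours in this order differed beyond the spread between mice. In limma's F test over the 3 groups, 0 of 10 markers reached an unadjusted p under 0.05, against 2.88% of all genes, and their p-values ran from 0.216 (Marco) to 0.730 (C1qb).

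Between Conv + LM and Conv + PBS mice, all 10 markers had a lower mean with the lean microbiota, with log2 fold changes from −1.16 (Marco) to −0.28 (Cd68) and a median of −0.39. The median of all 20404 genes was −0.01. Marco was 1.78 ± 0.87 (SD, n = 5) against 2.94 ± 1.52 (SD, n = 6), a 2.24-fold lower mean. The standard error of this difference was 0.65 on the log2 scale and its 95% interval ran from −2.54 to 0.21 (limma p = 0.0920, adjusted p = 0.998, exact permutation p = 0.130). The other 9 markers had standard errors of 0.29 to 0.42. At an unadjusted limma p under 0.05 there were 0 of 10 markers, against 3.88% of all genes, and 0 genes passed after Benjamini-Hochberg adjustment. The groups did not overlap for 0 of 10 markers and for 0.279% of all genes. Of the 30 exact two-sided permutation tests on single markers in all comparisons, 1 gave a p under 0.05. This was Timd4 here, at −2.45 ± 0.23 (SD, n = 5) against −1.77 ± 1.01 (SD, n = 6) with an exact p = 0.0346, while limma gave p = 0.129. Without mouse 1 its exact p was 0.0635, its log2 fold change moved from −0.68 to −0.27, and the median of the 10 markers moved to −0.11, with C1qb at 0.04 and the other 9 below 0. Without mouse 1, the log2 fold change of Marco was −0.57 (limma p = 0.218, exact permutation p = 0.238). Without Conv + PBS mouse 2, it passed the unadjusted threshold (log2 fold change −1.43, limma p = 0.0456, adjusted p = 0.958, exact permutation p = 0.0794).

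With the HFD-microbiota, the log2 fold changes against Conv + PBS mice ran from −0.45 (Timd4, standard error 0.42) to −0.07 (Clec4f, standard error 0.29), all 10 below 0, with a median of −0.14 against 0.00 for all genes. Marco was 2.64 ± 0.83 (SD, n = 5) against 2.94 ± 1.52 (SD, n = 6), a difference of −0.30 with a 95% interval from −1.67 to 1.08 (limma p = 0.654, exact permutation p = 0.810). At an unadjusted limma p under 0.05 there were again 0 of 10 markers, against 3.25% of all genes, and for 0 of 10 did the groups not overlap, against 0.23% of all genes. The direction rested on mouse 1, without which 9 of the 10 markers were higher in Conv + OM(HFD) mice, Timd4 was at −0.05, and the median was 0.19. Without mouse 26 it was 0.01, and Clec4f, Vsig4, Csf1r, C1qa, C1qb and C1qc were above 0, by at most 0.07. Without mouse 1, Csf1r had the smallest p, at 0.28 on the log2 scale (standard error 0.19, limma p = 0.153, exact permutation p = 0.254). Without both mouse 1 and mouse 25 the median was −0.03, with 2 markers higher and 8 lower. Within slides it was 0.26 on slide 1 (3 Conv + PBS and 3 Conv + OM(HFD) mice) and −0.56 on slide 2 (3 and 2). Mouse 25 was on slide 1 and mouse 1 on slide 2. The median within slides 1 and 2 was −0.20 and −0.61 for Conv + LM against Conv + PBS mice, and 0.46 and 0.12 between the inocula.

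When the inocula were compared, all 10 markers had a higher mean with the obese than with the lean one, by 0.14 (Cd68) to 0.87 (Marco), with a median of 0.29 against 0.00 for all genes. For Marco the standard error was 0.68 and the 95% interval −0.57 to 2.30 (limma p = 0.218, exact permutation p = 0.175), and Cd5l differed by 0.44 (standard error 0.40, limma p = 0.286, exact permutation p = 0.175). Here 0 of 10 markers reached an unadjusted limma p under 0.05, against 2.67% of all genes, and for 0 of 10 did the groups not overlap, against 0.436% of all genes. Without mouse 25 the median was 0.09, Marco was at 0.53 and Cd5l at 0.21, and Cd68, C1qa and C1qb were at −0.040, −0.020 and −0.0023. The 95% interval included 0 for every marker in the 3 comparisons, and a p above the threshold does not show that the groups were alike.

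**Figure D2:**
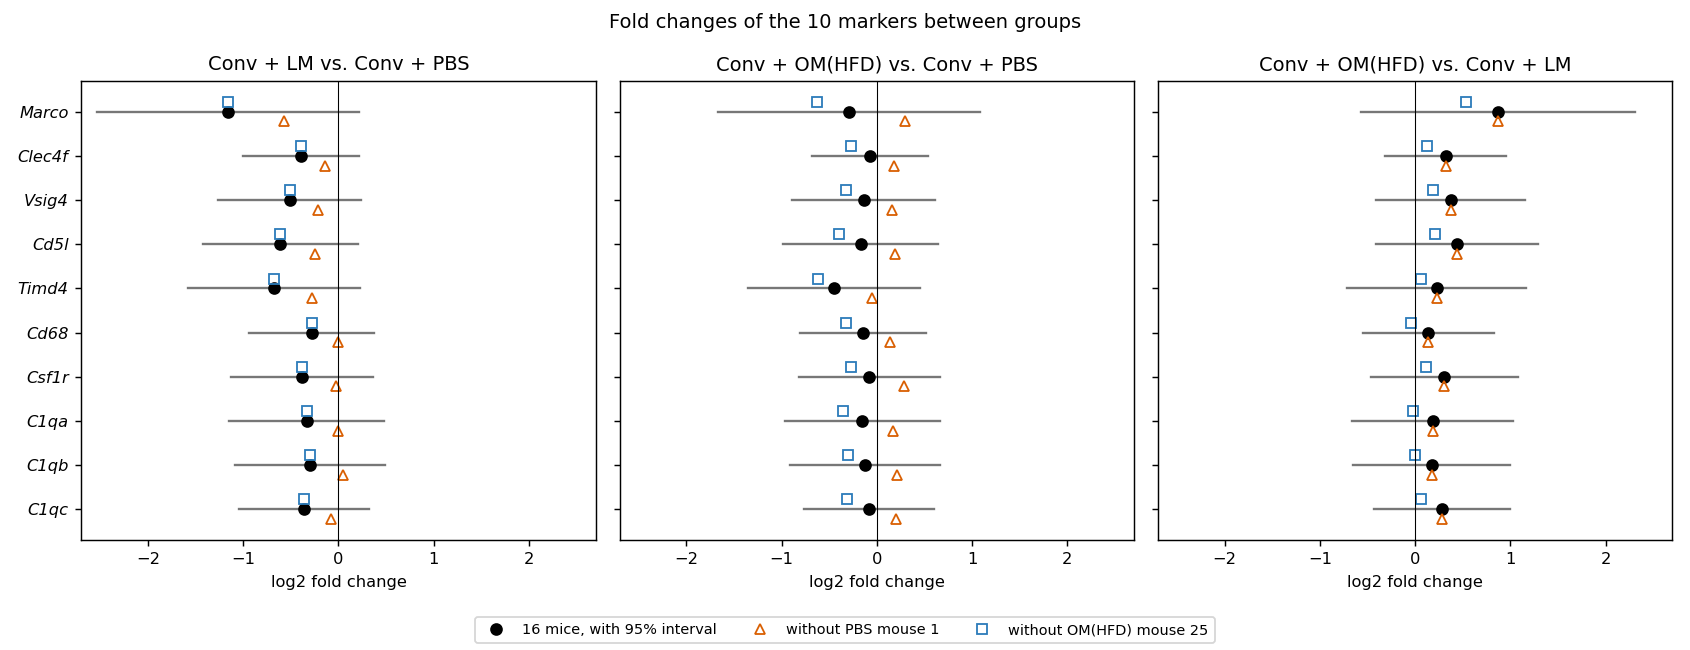
Log2 fold change (horizontal axis) of each marker (vertical axis) in the 3 comparisons, with its 95% interval from limma (points and lines, all 16 mice), without Conv + PBS mouse 1 (triangles) and without Conv + OM(HFD) mouse 25 (squares). Every interval includes 0, and leaving out mouse 1 moves 9 of the 10 markers above 0 in the middle panel.

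Whether inducible and constitutive markers moved together was asked within groups, on each mouse's deviation from its group mean, for all 45 pairs of markers over the 16 mice. Pearson's r was 0.79 (Marco with Vsig4) to 0.99 (Clec4f with C1qc), with a median of 0.94, and Spearman's rho was 0.61 to 0.97, with a median of 0.85. All 45 pairs passed for both measures after Benjamini-Hochberg adjustment over the pairs, in 100000 permutations of mice within groups (largest adjusted p 0.00931 for r and 0.0201 for rho). The median r was 0.88 over the 3 pairs of inducible markers, 0.94 over the 21 pairs of constitutive markers and 0.93 over the 21 pairs of 1 inducible and 1 constitutive marker. For comparison, the median r of all 20404 genes with the mean of the 10 markers was −0.08, and 359 genes (1.76%) had an r over 0.8. Within slides the median r of the pairs was 0.89 on slide 1 and 0.96 on slide 2.

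Much of this rested on the same mice. When the mice farthest from the median of the first gene of each pair were left out (mouse 1 and mouse 25 in 40 of the 45 pairs), the median r was 0.79, with a range of 0.28 to 0.94. Without mouse 1 alone it was 0.86. Without mouse 1 and mouse 25 in every pair it was 0.76 (0.50 within the inducible markers, of which 2 of the 3 pairs hold Marco, 0.75 within the constitutive ones and 0.79 between them), and 31 of 45 pairs passed a permutation test after Benjamini-Hochberg adjustment (over 14 mice). For comparison, over these mice the median r of all genes with the mean of the 10 markers was −0.05, and 0.622% of genes had an r over 0.8. So did 8 of the 10 markers, but each marker is part of that mean, which raises its r by construction. The 2 shares are therefore not a like comparison. Of the pairs with Marco, 0 of 9 passed, with an r of 0.28 (Cd68) to 0.59 (Csf1r) and adjusted p-values of 0.0508 to 0.309, so that the relation of Marco with the other markers was weaker without these mice, with all 9 r above 0. Of the 36 pairs without Marco, 31 passed. The 5 others were pairs of Timd4 with Clec4f, Vsig4, C1qa, C1qb and C1qc, at r of 0.38 to 0.57. The 14 mice include mouse 30, which had the lowest Timd4 value. Without mouse 1 and mouse 30 instead, Timd4 had an r of 0.72 with C1qa, 0.67 with C1qb and 0.84 with C1qc. Over the 14 mice these were 0.41, 0.38 and 0.51, so their low r rested partly on mouse 30. Among the 14 mice, Cd5l and Cd68, both counted as inducible, had an r of 0.92 with each other, and Cd5l an r of 0.67 (Timd4) to 0.90 (C1qb) with the 7 constitutive markers. C1qa and C1qb had 0.94, and Vsig4 had 0.94 with C1qa. In these mice the lowest r belonged to pairs with Marco or Timd4, 1 inducible and 1 constitutive marker.

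**Figure D3:**
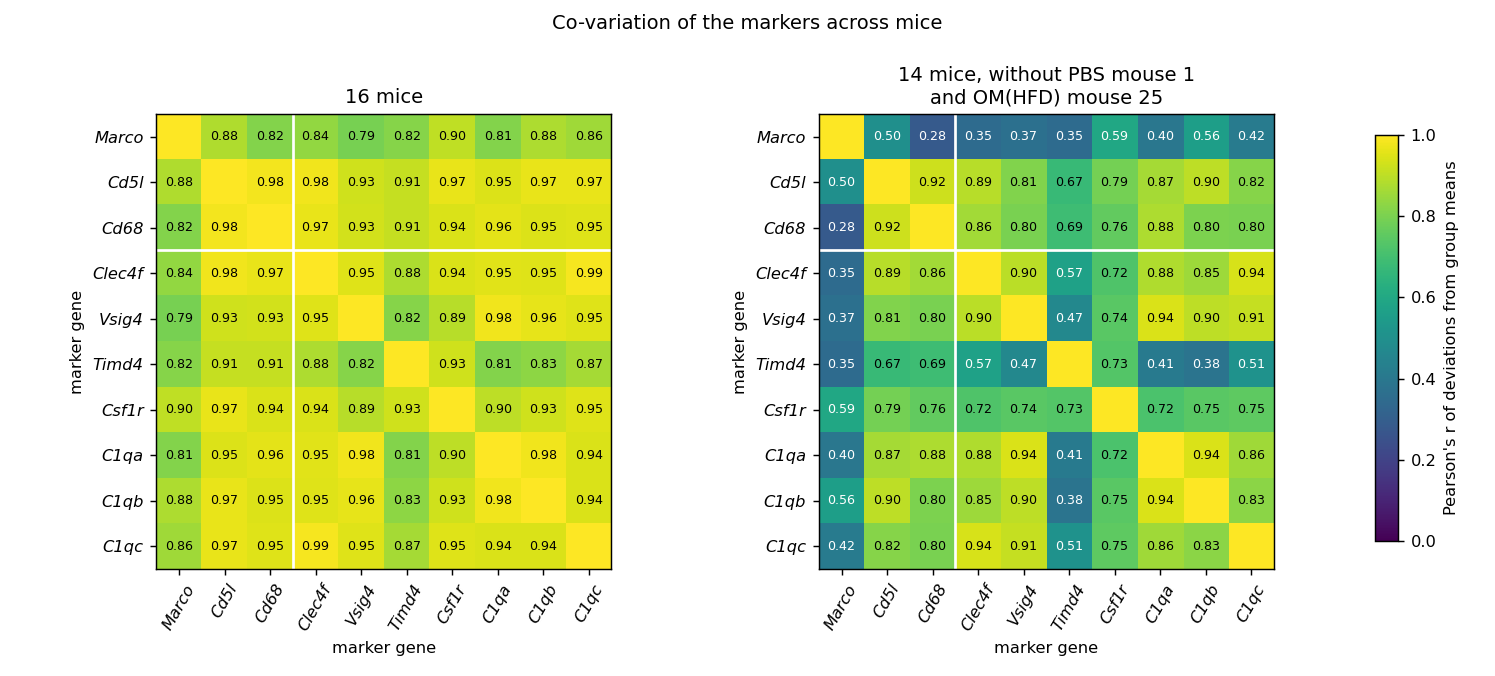
Pearson's r of the deviations from group means for each pair of markers, over 16 mice (left) and over 14 mice without mouse 1 and mouse 25 (right), on a colour scale from 0 to 1, with white lines between the inducible markers (first 3 rows and columns) and the constitutive ones. The rows of Marco and Timd4 have the lowest r on the right, where Marco has 0.28 to 0.59 and Timd4 0.35 to 0.73, while C1qa and C1qb stay at 0.94.

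Other probes of the markers did not all follow. A second Cd68 probe, well above background on 16 arrays, had an r of 0.95 with the one used and was higher in mouse 1 by 1.64 on the log2 scale. Another Cd68 probe, on 6 arrays, had an r of 0.46. The second Csf1r probe, on 16 arrays, lay earlier in the transcript and had an r of 0.17 with the one used. Its SD within groups was 0.18 against 0.62, and mouse 1 exceeded its group mates by 0.36 there instead of 2.14, so the Csf1r result depends on the probe. The second C1qc probe was well above background on 0 arrays.

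A wider list of 25 genes of Kupffer cells and macrophages showed how far the pattern reached. Of these, 24 could be tested (Spi1 was not well above background), and 16 had an r over 0.8 with the mean of the 10 markers, with a median of 0.92, and a median of 0.69 over the 14 mice. Slc11a1, a metal transporter of phagosomes, had the highest r (0.99, and 0.96 over 14 mice). Fcer1g and Tyrobp, the adaptors of activating receptors, had 0.99 and 0.98, and Lyz2 (lysozyme) and Ctss (cathepsin S) both 0.97. Adgre1, which encodes the F4/80 antigen, had 0.95. Over the 14 mice these were 0.94 for Fcer1g, 0.91 for Tyrobp and for Lyz2, 0.93 for Ctss and 0.76 for Adgre1. Clec1b, Il18bp and Spic fell further, from 0.85, 0.92 and 0.91 over 16 mice to 0.37, 0.54 and 0.55. Some genes often used for the same cells did not follow. The haemoglobin scavenger receptor Cd163 had an r of 0.35, the oxysterol receptor Nr1h3 0.36, the iron exporter Slc40a1 0.25 and Id3 0.22. Several of these, Slc40a1, Nr1h3 and Id3 among them, are also made by other liver cells.

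**Figure D4:**
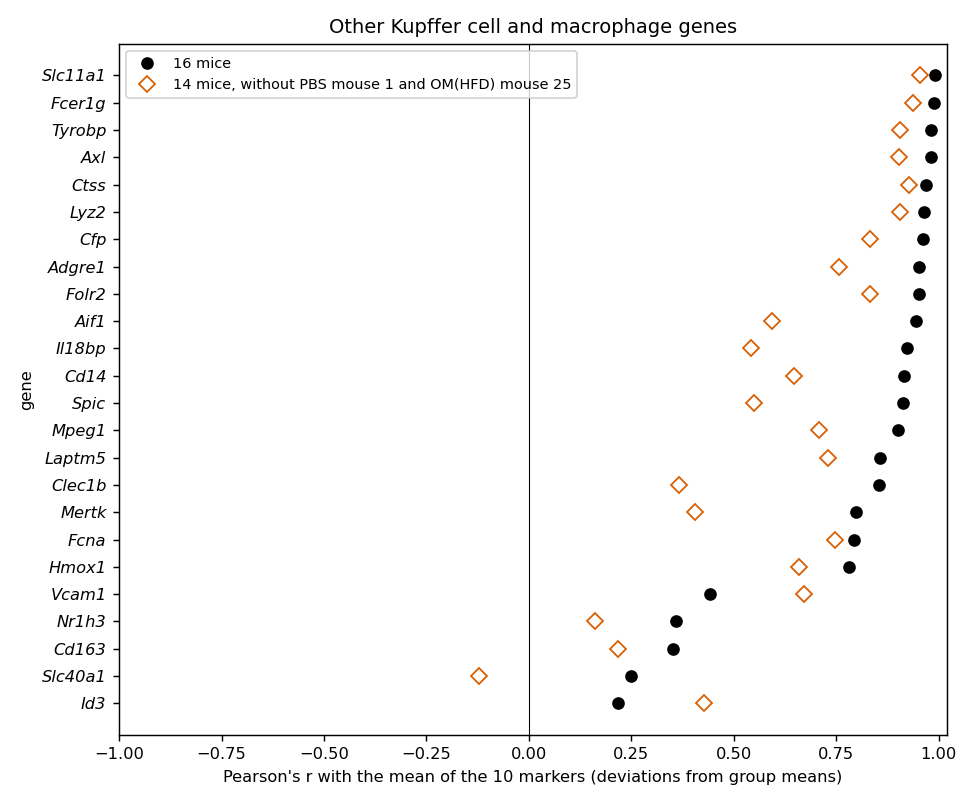
Pearson's r (horizontal axis) of 24 further Kupffer cell and macrophage genes (vertical axis) with the mean of the 10 markers, on deviations from group means, over 16 mice (points) and over 14 mice without mouse 1 and mouse 25 (diamonds). Slc11a1, Fcer1g and Tyrobp stay above 0.9 in both, and Id3 and Slc40a1 lie below 0.3 over 16 mice.

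Against Conv + PBS mice, 1 of the 24 genes reached an unadjusted limma p under 0.05 with the HFD-microbiota and 1 with the lean microbiota, and 0 did between the inocula. Over all genes the shares were 3.25%, 3.88% and 2.67%, so these counts were near the background. Slc40a1 was higher with the HFD-microbiota (log2 fold change 0.32, standard error 0.14, limma p = 0.0299, exact permutation p = 0.0390). Fcna, a ficolin of Kupffer cells, was lower with the lean microbiota (−0.42, standard error 0.18, limma p = 0.0342, exact permutation p = 0.0346). Neither passed after adjustment over all genes. Without mouse 1, Fcna was at −0.28. With the HFD-microbiota it was at −0.35 (standard error 0.18, limma p = 0.0722, exact permutation p = 0.139), and it differed by 0.07 between the inocula. Adgre1 was at −0.04 with the HFD-microbiota and −0.44 with the lean microbiota (standard error 0.40 in both), and at 0.34 and −0.07 without mouse 1. The median fold change of the list was −0.04 for Conv + OM(HFD) and −0.28 for Conv + LM against Conv + PBS mice, and 0.25 between the inocula. Without mouse 1 the medians against Conv + PBS mice were 0.21 and −0.04, and without mouse 25 that between the inocula was 0.10. The ligands of the Csf1r axis, Csf1 and Il34, had log2 fold changes of −0.03 and 0.09 with the HFD-microbiota and 0.14 and 0.25 with the lean microbiota, with an unadjusted limma p of at least 0.178.

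Outside the 10 markers, the genes most like the mean of the 10 markers over 16 mice were Slc11a1, Fcer1g, Pde1b, AF251705 (the name in the files) and Ear2, with r of 0.98 to 0.99, and 0.93 to 0.96 over 14 mice. Slc11a1 and Fcer1g are also on the wider list. Those most like Marco were others, namely Igsf6, Klf6, Nfkbid, Fgd3 and Adcy4, with r of 0.94 to 0.95 over 16 mice and 0.76 to 0.82 over 14 mice.

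Markers of other cells moved with the markers in mouse 1 and mouse 25. Of 8 neutrophil genes, 5 could be tested (Ltf, Retnlg and Cxcr2 were well above background on 2 or 3 arrays). Their summed level on the linear scale, in which 1 is the 75th percentile, was 31.0 in mouse 1 and 28.96 in mouse 25, and 0.682 to 1.82 in the other mice. S100a8, a calcium-binding protein of neutrophils, exceeded the median of the group mates by 5.86 on the log2 scale in mouse 1 and by 4.89 in mouse 25. In the same order, S100a9 exceeded it by 5.56 and 4.97, Camp by 3.32 and 2.63, Ngp by 3.14 and 2.64 and Mmp8 by 1.23 and 0.55. The summed level of the 10 markers was 277.5 in mouse 1, 51.3 to 73.1 in the other Conv + PBS mice, 43.4 to 65.1 in Conv + LM mice and 49.4 to 129.3 in Conv + OM(HFD) mice. That of the wider Kupffer cell list was 336.2 in mouse 1, 136.7 to 159.0 in the other Conv + PBS mice and 236.2 in mouse 25. Neutrophil genes were thus up in the same 2 livers as the markers, but by other ratios. By summed level, mouse 1 exceeded its group mates 4.60-fold in the markers and 29.4-fold in neutrophil genes, and mouse 25 2.17-fold and 19.4-fold. Single neutrophil genes differed, with Mmp8 the least raised. What part neutrophils had in the marker result was not tested. Over the 14 mice the median r of the neutrophil genes with the marker mean was 0.14.

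Monocyte genes (7 of 8 tested, all but Chil3) summed to 38.6 in mouse 1, 19.3 to 25.7 in the other Conv + PBS mice and 24.9 in mouse 25. B cell genes (3 of 4, Cd79a was not well above background) summed to 1.50 in mouse 1 and 0.368 to 0.772 in the other Conv + PBS mice, and to 1.92 in mouse 25 and 0.495 to 1.04 in the other Conv + OM(HFD) mice. T cell genes (3 of 4) summed to 3.43 in mouse 1, with 2.29 to 3.86 in its group mates, and to 2.80 in mouse 25. Single genes of this list differed, with Cd3e 0.13 above the median of the group mates in mouse 1, Cd3g 0.59 and Cd3d 1.38 on the log2 scale. The mean of the list had an r of 0.80 with the marker mean over 16 mice. The median r of its genes was 0.79 over 16 mice and 0.70 over the 14 mice. Red cell genes (3 of 3) summed to 365.9 in mouse 1, within the range of the other Conv + PBS mice, and to 702.6 in mouse 25, above the 346.6 to 544.7 of its group mates. Genes of lipid-associated macrophages (4 of 5, Gpnmb was well above background on 1 array) summed to 12.0 in mouse 1 and 10.6 to 14.5 in the other Conv + PBS mice, and to 13.8 in mouse 25. This sum was carried by Spp1, which was below the median of the group mates in both mice (−0.35 and −0.22), while Trem2 (0.77 and 1.48), Itgax (1.07 and 1.56) and Cd9 (0.29 and 0.33) were above it, in the order mouse 1 and mouse 25. Of 10 macrophage activation genes, 5 could be tested, which summed to 4.98 in mouse 1, 5.28 in mouse 25 and 2.05 to 4.50 in the other mice. In mouse 1 and mouse 25, in that order, the difference from the median of the group mates was 3.16 and 2.45 on the log2 scale for Il1b, 1.14 and 2.84 for Ccl2, 1.12 and 0.87 for Cxcl10, 0.56 and −0.16 for Nos2 and 0.25 and 0.55 for Tnf, while Il6, Ccl3, Ccl4, Il10 and Ptgs2 were too dim in most livers. The share of these cells in the result was not tested.

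Genes of sinusoidal endothelium (7 of 7) summed to 50.9 in mouse 1 and 49.5 to 56.6 in the other Conv + PBS mice, and those of hepatocytes (6 of 6) to 5351 and 5492 to 6620. Stellate cell genes (5 of 5) summed to 79.0 and 89.3 to 108.1. For none of these 3 lists did mouse 1 lie above the range of its group mates. In mouse 25 the endothelial sum was 34.1 and the stellate sum 66.1, both the lowest of the 16 mice, and the hepatocyte sum was 5506.

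**Figure D5:**
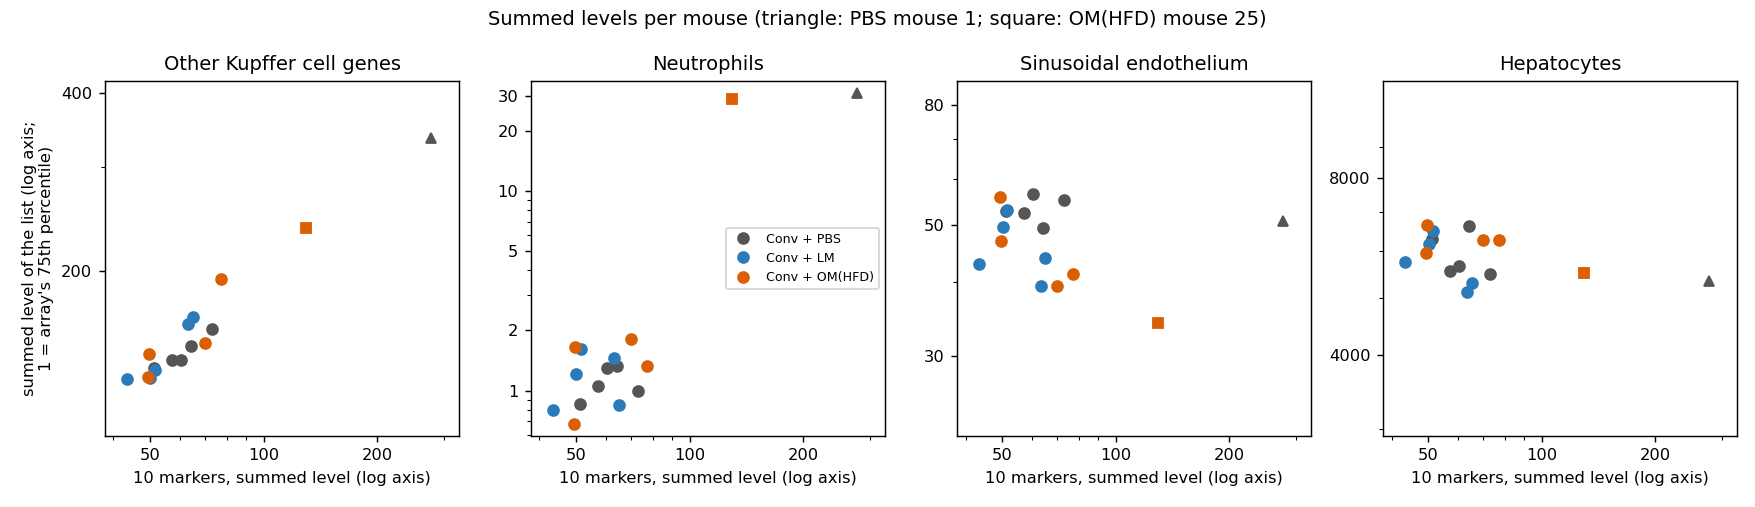
Summed level of the 10 markers (horizontal axis) against the summed level of 4 other lists (vertical axes) in each mouse, both on log axes in units of the 75th percentile of the array. Mouse 1 (triangle) and mouse 25 (square) stand apart for the wider Kupffer cell list and for neutrophil genes (31.0 and 28.96 against at most 1.82), and lie within the range of the other mice for hepatocyte genes.

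Between groups, few genes of these lists reached an unadjusted limma p under 0.05, and 0 passed after adjustment over all genes. Of the 5 stellate cell genes, 3 reached it and were lower with the HFD-microbiota than with the vehicle, against 3.25% of all genes, while Reln was at −0.34 and Des, well above background on 9 arrays, at 0.54. Lrat, which stores retinol as ester in these cells, had a log2 fold change of −0.63 (standard error 0.14, limma p = 0.000352, exact permutation p = 0.00433, the smallest possible). Colec11 was at −0.27 (limma p = 0.0391, exact permutation p = 0.0346) and Dcn at −0.26 (limma p = 0.0362, exact permutation p = 0.0519). Against the lean microbiota, Lrat and Colec11 were lower as well (−0.39 and −0.27, limma p = 0.0177 and 0.0459, exact permutation p = 0.0238 and 0.0635). Clec4g, a lectin of sinusoidal endothelium, and the T cell gene Cd3g were lower with the HFD-microbiota than with the vehicle (−0.48 and −0.46, limma p = 0.0159 and 0.0111, exact permutation p = 0.0216 for both), and Clec4g was at −0.31 without mouse 25. Cd9 was higher with the obese than with the lean inoculum (0.35, limma p = 0.0300, exact permutation p = 0.0317). The neutrophil gene Mmp8, well above background on 12 arrays, was lower with the lean inoculum than with the vehicle (−1.22, limma p = 0.0477, exact permutation p = 0.0303). The first genes of the other lists were not at that p in any comparison. With the HFD-microbiota and the lean microbiota, in that order, the log2 fold change against Conv + PBS mice was −0.29 and −0.30 for Ly6c2, 0.43 and 0.12 for Trem2, 0.41 and 0.55 for Tnf, and 0.27 and −0.94 for S100a8. Without mouse 1 and mouse 25, these differences were −0.12 and −0.14 for Ly6c2, 0.26 and 0.23 for Trem2, and 0.16 and 0.00 for S100a8. With all mice they were −0.07 and −0.15 for Cd3e, −0.13 and −0.08 for Stab2, 0.23 and 0.16 for Hba-a1, and 0.11 and −0.04 for Alb.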

How the data were processed

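Liver gene expression of 16 mice was measured on Agilent SurePrint one-colour arrays, grouped from the labels. The deposited intensity values come from Agilent Feature Extraction 10.10.1.1 (submitters' processing notes), which had subtracted the background array by array, without scaling arrays to each other. A deposited table of log2 values, which matched quantile-normalized median intensities, served as an alternative. Probe positions are on mm9, and symbols were matched to RefSeq genes of GRCm38.p6 (all 10 markers matched).

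Control spots and outlier spots were left out, spots of a probe were averaged, and log2 values were centred on the array's 75th percentile. A probe had to be well above background on 5 or more arrays (30664 probes, 20404 genes), and the probe with the highest mean stood for a gene. Groups were compared in 1 fit of all 3 groups with lmFit and eBayes of limma 3.58.1 (R 4.3.3), with Benjamini-Hochberg adjustment over all genes. This fit was tested on simulated data. Exact two-sided permutation tests were run on single markers (scipy 1.17.1), whose smallest p is 0.00433 for 5 against 6 mice and 0.00794 for 5 against 5. Deviations from group means were correlated with 100000 permutations of mice within groups. Nothing in the labels says that samples are other than separate mice, but mice of a group shared an inoculum, so p-values measure the spread between these mice only. Slide 1 held 3 vehicle, 2 lean and 3 obese recipients, and slide 2 held 3, 3 and 2.

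The genes named are the 10 markers, genes of the other lists at an unadjusted limma p under 0.05 in any comparison, the first gene of each list, and the 5 genes most like the marker mean and Marco. Further genes named for their r or their level in single mice were chosen after their values were seen. The markers and lists were chosen with earlier results of these data known. A gene of the lists is not reported here. Alternatives covered the background (normexp, offset 50), the scaling (quantile, or the authors' table), the filter (none, or all arrays), the slide as a block, fits of 2 groups, weights for arrays, averaged probes, the methods' t-test, other correlation settings, and leaving out each mouse. Leaving out mouse 1 and mouse 25 together and fits within 1 slide were chosen after seeing the data.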

Additional observations from a re-analysis of the deposited data

Results flagged for a closer look

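Within the 30 sets of 1 marker in 1 group, a mouse lay far from the rest of its group, by Dixon's criterion, in 8 sets, and in all 8 it was Conv + PBS mouse 1 at the top. Chance alone flags about 1 in 20 such sets, and the markers are not independent of each other. The log2 levels of mouse 1 were 5.88 for Marco, 4.92 for Clec4f, 6.56 for Cd5l, 0.26 for Timd4, 2.66 for Cd68, 5.74 for Csf1r, 2.21 for C1qb and 4.15 for C1qc. Vsig4 and C1qa were highest in mouse 1 too, at 1.84 and 2.77, without meeting the criterion. Mouse 25 met it for 0 markers.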

How the results depend on the processing

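Under the alternatives of background, scaling, filter, slide, groups, weights, probes and test, 0 of 10 markers had an unadjusted p under 0.05 in the 3 comparisons and in the F test where it was run (fits of 2 groups and the methods' t-test have none), and the 156 fold changes of single markers whose value these settings moved kept their sign (the 144 others were the same by construction). The median log2 fold change of the markers then was −0.15 to −0.08 for Conv + OM(HFD) vs. Conv + PBS, −0.40 to −0.27 for Conv + LM vs. Conv + PBS and 0.24 to 0.31 for Conv + OM(HFD) vs. Conv + LM mice. When each mouse was left out in turn, these medians ranged from −0.32 to 0.19, from −0.52 to −0.11 and from 0.09 to 0.41, and the number of markers at that p was 0 to 0, 0 to 1 and 0 to 0, the 1 being Marco without Conv + PBS mouse 2. Of the 320 fold changes to which the mouse left out belonged, 21 changed sign, with mouse 1 (10), mouse 25 (3), mouse 26 (6) or mouse 30 (2) left out. For Conv + OM(HFD) vs. Conv + PBS the ranges were −0.63 to 0.29 for Marco, −0.27 to 0.18 for Clec4f, −0.32 to 0.16 for Vsig4, −0.40 to 0.19 for Cd5l, −0.32 to 0.14 for Cd68, −0.27 to 0.28 for Csf1r, −0.35 to 0.17 for C1qa, −0.30 to 0.22 for C1qb and −0.31 to 0.20 for C1qc. For Conv + LM vs. Conv + PBS, C1qb ranged from −0.46 to 0.044. For Conv + OM(HFD) vs. Conv + LM, Cd68 ranged from −0.040 to 0.27, C1qa from −0.020 to 0.35 and C1qb from −0.0023 to 0.34. The median r of the 45 pairs (0.94) was 0.88 with probes of a gene averaged, 0.85 with Spearman's rho, 0.89 within slide 1, 0.86 to 0.95 when each mouse was left out, and 0.76 without mouse 1 and mouse 25. The cause was not tested. No paired analysis was possible because no mouse number occurs in more than 1 group.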
